A study of Mus musculus with 6 samples.

Results

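The glutathione, glucuronide and sulfate conjugation enzymes of mouse liver were compared between 3 DeltaKlf6 and 3 wildtype animals. Members were the genes whose symbol marks a cytosolic or microsomal glutathione S-transferase (Gst, Mgst), a UDP-glucuronosyltransferase of families 1 to 3 (Ugt) or a sulfotransferase (Sult) and which had a probe set annotated to 1 gene only. Where a gene had several such probe sets, the one with the highest mean over the 6 arrays was used. This gave 43 of the 17097 genes measured: 16 cytosolic glutathione S-transferase genes, 3 microsomal ones, 11 UDP-glucuronosyltransferase genes and 13 sulfotransferase genes. Gstk1, whose kappa class enzyme lies in mitochondria and peroxisomes, was kept in the cytosolic list. Gsta3 and Ugt1a1, well-known liver members, had no probe set meeting this rule and were not analysed here. The symbols were the criterion for the genes, but the list was chosen with earlier results of these data known.

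Both groups were C57Bl/6 mice from which 70% of the liver had been removed surgically (partial hepatectomy, after which the remnant regrows), and RNA was taken from the remnant 12 h later. Wildtype animals were the controls, and DeltaKlf6 animals lacked Klf6, a zinc-finger transcription factor, in hepatocytes by design. The sources used here do not name the Cre driver or the age or sex of the animals. Each Affymetrix array held total RNA of 1 animal, the overall study used 6 animals per group, and the deposited values are on a log2 scale, on which a difference of 1 is a doubling. In whole tissue, fewer cells of a type and less RNA per cell cannot be told apart.

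Conjugation makes foreign and endogenous compounds more water-soluble, so that they can be exported in bile or urine. Glutathione S-transferases attach the tripeptide glutathione to electrophiles. UDP-glucuronosyltransferases of the endoplasmic reticulum transfer glucuronic acid from UDP-glucuronate to compounds such as bilirubin, steroids and drugs. Cytosolic sulfotransferases transfer sulfate from the donor PAPS to steroids, bile acids, thyroid hormone and phenols. Hepatocytes are the main site of these reactions. NRF2, which binds antioxidant response elements, and the receptors CAR, PXR and AHR are known inducers of many of the genes.

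Promoter windows are shown for 4 genes, chosen with their values known. Gstm3 and Gstm5 are examples from the mu class, which was higher on average. Gstp1 and Ugt2b37 were higher in all 3 DeltaKlf6 arrays than in any wildtype array. Each window runs from 250 bases before to 50 bases after the annotated start, 5′ to 3′, from RefSeq on build GRCm38.p6: Gstm3 at chr3:107969125-107969424, minus strand, Gstm5 at chr3:107895604-107895903, plus strand, Gstp1 at chr19:4037863-4038162, minus strand, and Ugt2b37 at chr5:87254739-87255038, minus strand. Capitals mark matches on either strand to a GC box (GGGCGG) or the CACCC box, which are letter runs of the kind that Klf and Sp zinc fingers bind. They also mark the core of the antioxidant response element (TGACNNNGC), to which NRF2 is known to bind, an AP-1 site (TGAGTCA) and the core of the xenobiotic response element (GCGTG), to which AHR is known to bind. In Gstm5 matches overlapped over 9 bases, so that neighbouring matches run together, and in the other 3 windows none overlapped.
Gstm3: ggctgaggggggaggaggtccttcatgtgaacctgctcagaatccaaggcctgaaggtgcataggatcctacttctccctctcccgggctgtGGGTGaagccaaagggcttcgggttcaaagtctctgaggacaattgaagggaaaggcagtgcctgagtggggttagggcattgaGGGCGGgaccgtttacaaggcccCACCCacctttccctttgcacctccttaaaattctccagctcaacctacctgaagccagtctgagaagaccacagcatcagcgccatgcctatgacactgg
Gstm5: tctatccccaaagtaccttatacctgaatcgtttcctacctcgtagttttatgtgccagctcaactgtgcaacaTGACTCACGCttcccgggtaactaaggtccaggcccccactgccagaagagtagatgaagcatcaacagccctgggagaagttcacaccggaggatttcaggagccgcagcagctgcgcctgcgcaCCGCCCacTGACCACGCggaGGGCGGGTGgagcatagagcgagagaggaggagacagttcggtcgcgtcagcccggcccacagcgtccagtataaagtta
Gstp1: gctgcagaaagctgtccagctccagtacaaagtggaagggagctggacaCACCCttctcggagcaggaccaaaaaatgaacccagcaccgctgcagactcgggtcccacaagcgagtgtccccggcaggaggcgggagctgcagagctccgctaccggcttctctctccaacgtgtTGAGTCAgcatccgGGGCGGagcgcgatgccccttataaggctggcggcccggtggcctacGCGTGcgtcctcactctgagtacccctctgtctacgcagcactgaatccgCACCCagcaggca
Ugt2b37: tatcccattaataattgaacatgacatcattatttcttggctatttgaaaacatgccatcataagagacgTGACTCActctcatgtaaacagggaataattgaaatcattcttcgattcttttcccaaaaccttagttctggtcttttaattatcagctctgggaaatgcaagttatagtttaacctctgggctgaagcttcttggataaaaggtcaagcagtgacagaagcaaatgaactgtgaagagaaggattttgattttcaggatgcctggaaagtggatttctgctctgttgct

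The windows held 3 matches in Gstm3, 7 in Gstm5, 5 in Gstp1 and 1 in Ugt2b37, an AP-1 match. RefSeq promoter windows were matched for 38 of the 43 members, 48 windows in all. A GC box was found in 15 of these (31.2%) and in 35.7% of all 32851 promoter windows of the same length. A CACCC box stood in 23 (47.9%), against 57.5% of all windows. The antioxidant response core stood in 3 member windows (6.25%), of Gstm5, Gstm7 and Mgst1, against 12.4% of all windows. AP-1 matches stood in 7 windows (14.6%), against 5.20% of all. The xenobiotic response core stood in 11 (22.9%), against 32.4%. The UDP-glucuronosyltransferase 2 windows, 7 on chromosome 5, held no GC box, while 6 of the 12 mu class windows, on chromosome 3, held one. These are letter matches within the windows and were not measured as binding.

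Klf6 itself was not low in every library labelled as knockout. Relative to the wildtype mean, its 3 probe sets lay 1.82 to 2.13 higher in the library labelled DeltaKlf6 1, between -0.87 and 0.05 in that labelled DeltaKlf6 2 and between -1.75 and -0.32 in that labelled DeltaKlf6 3. By group mean the 3 probe sets of Klf6 differed by 0.135, 0.517 and 0.023 (SE 0.75, 0.53 and 0.85), so none was lower in DeltaKlf6. Whether these probe sets lie in the deleted part is not known here, so directions below are between libraries as labelled. Hepatocyte markers were high in all arrays: 8 of 8 were measured, 0 were under the array medians, and their mean level was 12.00 to 12.01 in wildtype and 11.96 to 12.39 in DeltaKlf6. The library labelled DeltaKlf6 3 had an upper quartile over all genes of 6.47, against 6.82 to 6.97 in the other 5 arrays. The gap between 3' and 5' Gapdh probe sets, a measure of RNA length, lay between 4.06 and 4.43 in wildtype. It was at 3.47 for DeltaKlf6 1, at 3.45 for DeltaKlf6 2 and at 4.83 for DeltaKlf6 3. The same gap for actin probe sets lay between 4.86 and 5.39 in wildtype. By actin DeltaKlf6 3, at 5.05, was inside the wildtype range, unlike by Gapdh. DeltaKlf6 1 and DeltaKlf6 2 lay below the wildtype range by both. The part of these array differences in the results was not tested.

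No conjugation gene passed the test, and most were higher on average in DeltaKlf6. By group mean 34 of the 43 genes were higher and 9 lower, whereas 48.4% of all 17097 genes and 42.2% of the 8549 genes at or above the median level were higher. The median log2 difference, DeltaKlf6 minus wildtype, was 0.24 over the members and -0.01 over all genes. With limma and Benjamini-Hochberg adjustment over all genes, 0 members and 0 of all genes (0%) had an adjusted p under 0.05, and the members' adjusted p ran from 0.992 to 0.999. At an unadjusted p under 0.05 there was 1 member, Ugt2b37, which was higher, against 3.69% of all genes in either direction and 1.21% on the higher side. The groups did not overlap for 3 members, against 9.32% of all genes. They were Gstp1 and Ugt2b37, both higher, against 3.41% of all genes, and Sult2a2, lower, against 5.91%. Of 43 genes the either-direction counts are 2.33% and 6.98%, below the shares for all genes. The higher-side counts of 1 (2.33%) and 2 (4.65%) are slightly above theirs. Counts this small are not read as a difference in either case.

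**Figure D1:**
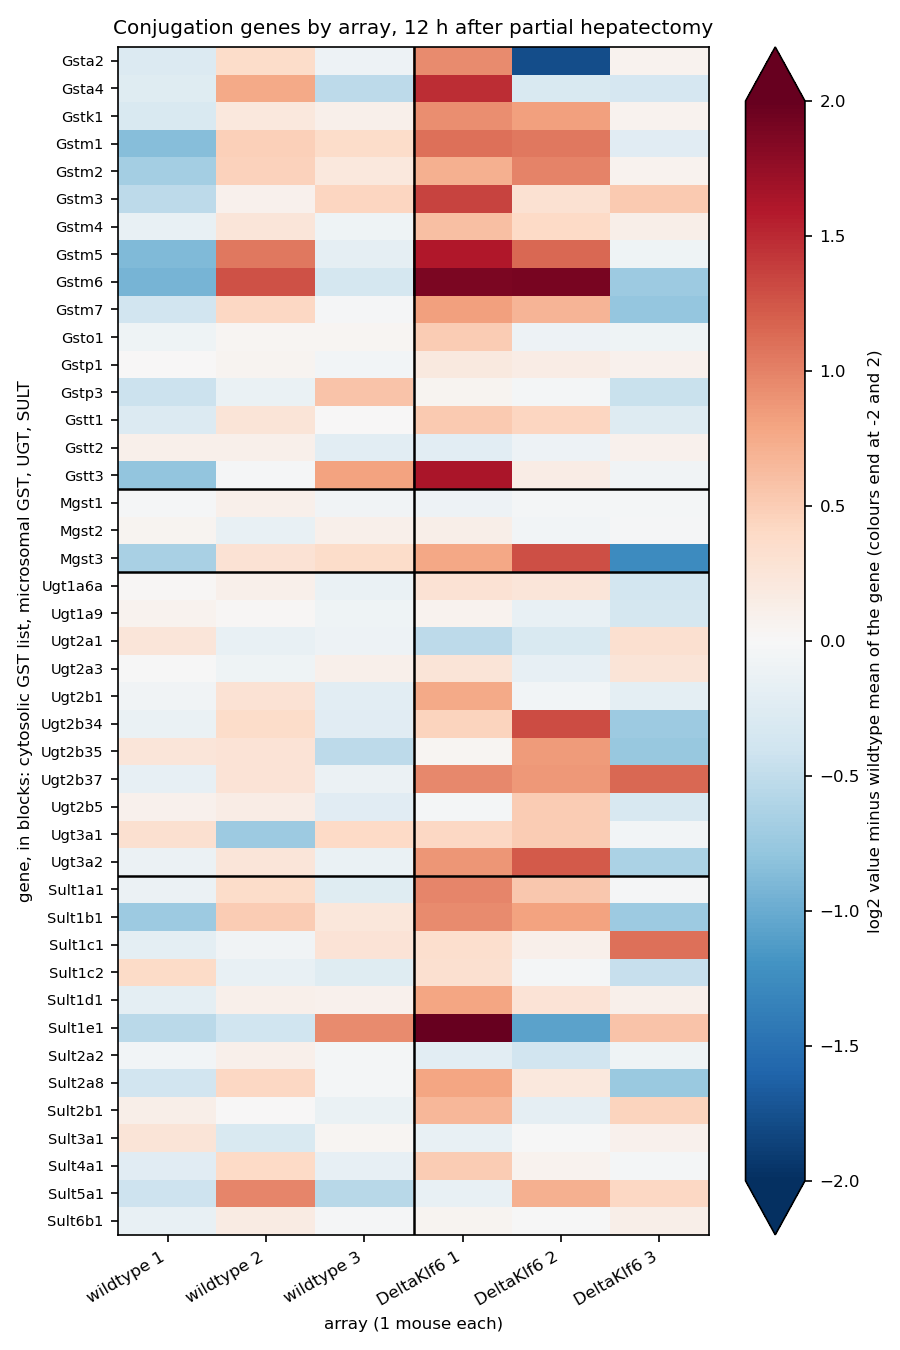
Colours give each gene's log2 value in each array minus the wildtype mean of that gene, for the 43 conjugation genes (rows, in blocks by family) and the 6 arrays (columns, 1 mouse each). The column of DeltaKlf6 1 is red for most genes, with 31 of 43 above every wildtype array, and that of DeltaKlf6 3 is mixed, with 7 above and 14 below every wildtype array.

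The DeltaKlf6 libraries differed from each other. In the library labelled DeltaKlf6 1, 31 of 43 members lay above every wildtype array, against 29.0% of all genes and 34.2% of the genes at or above the median level. In that labelled DeltaKlf6 2, 20 members lay above and 8 below, against 28.0% and 27.6% of all genes. Of the genes at or above the median level 36.2% lay above. In that labelled DeltaKlf6 3, which had the lowest Klf6 signal of the 3 by 2 of 3 probe sets, 7 lay above and 14 below, against 27.2% and 35.1%. There 50.2% of the genes at or above the median level lay below. The median deviation of the members from wildtype was 0.53, 0.21 and -0.06 in DeltaKlf6 1, 2 and 3. Over the genes at or above the median level it was 0.00, 0.07 and -0.24. Wildtype arrays differed too: wildtype 1 was the lowest of the 3 for 23 members, against 37.9% of all genes, and wildtype 2 the highest for 28, against 35.8%. The SD was larger in DeltaKlf6 for 31 members, against 68.1% of all genes. With the high-Klf6 library DeltaKlf6 1 left out, 28 of 43 members were higher and their median was 0.05.

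**Figure D2:**
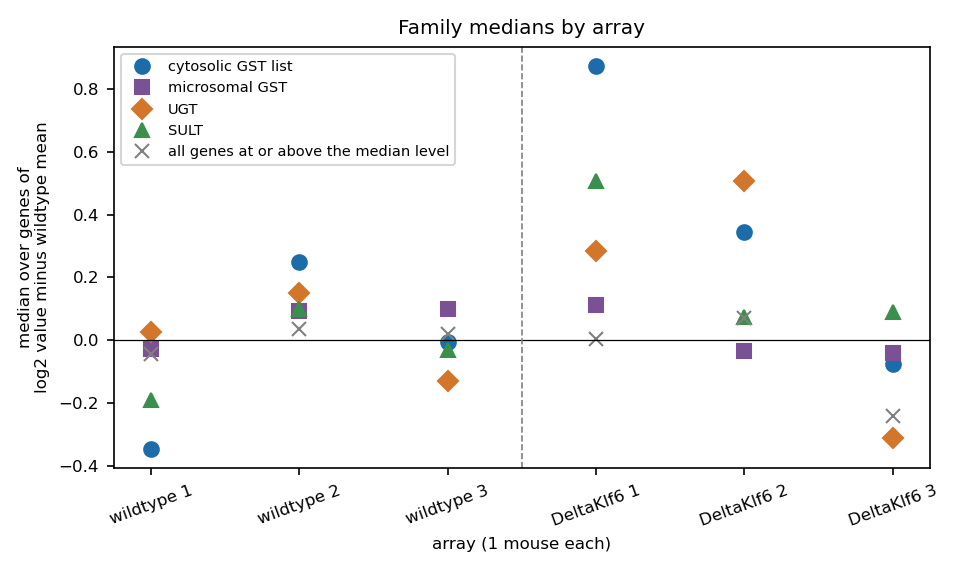
Points give the median over the genes of a family of the log2 value minus the wildtype mean, for each array (x axis, 1 mouse each), with all genes at or above the median level as grey crosses. The cytosolic list is at 0.87, 0.34 and -0.08 in DeltaKlf6 1, 2 and 3 and at -0.35, 0.25 and -0.01 in wildtype 1, 2 and 3.

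With the arrays left out in turn, the number of members at an unadjusted p under 0.05 moved most without the library labelled DeltaKlf6 3. The number of members higher by group mean moved most without that labelled DeltaKlf6 1. Without DeltaKlf6 3, 36 of 43 members were higher, their median was 0.44, and 12 had an unadjusted p under 0.05, all of them higher, against 9.04% of all genes in either direction and 5.35% of all genes on the higher side. The 12 were 5 mu class genes (Gstm1, Gstm2, Gstm5, Gstm6 and Gstm7) with Gstk1, Mgst3, Sult1a1, Sult1b1, Ugt2b34, Ugt2b37 and Ugt3a2. The smallest adjusted p among members was then 0.412, with 0 past the threshold. The number of members at an unadjusted p under 0.05 was 3 without DeltaKlf6 2 (6.81% of all genes), 3 without wildtype 2 (2.76%) and 2 without wildtype 3 (2.22%). It was 1 without DeltaKlf6 1 (4.09%) and 1 without wildtype 1 (2.27%), in both cases Ugt2b37.

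**Figure D3:**
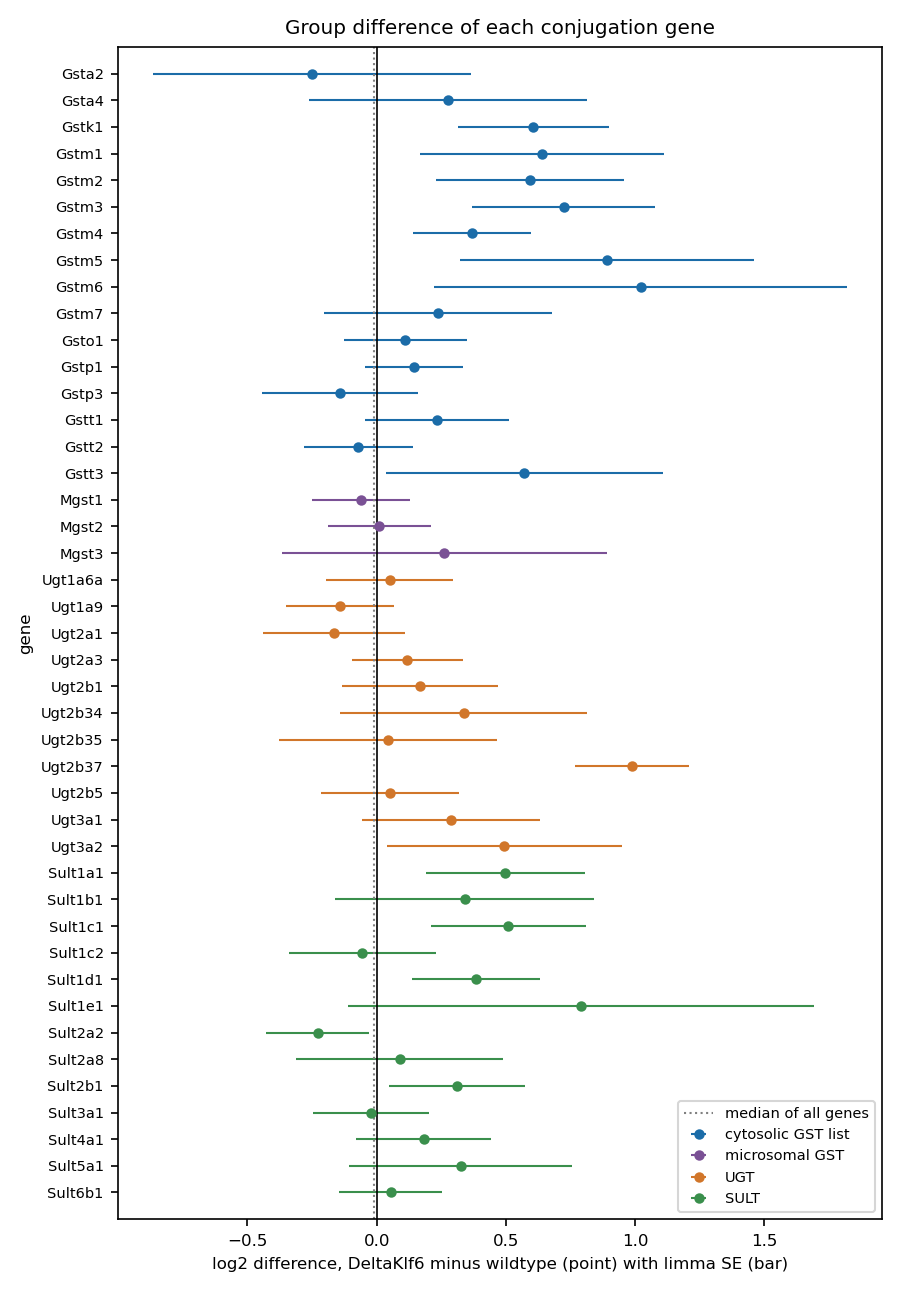
Points are the log2 differences, DeltaKlf6 minus wildtype, of the 43 genes (rows, coloured by family) with the standard error from limma as bars, from 3 arrays per group. Of the points 34 lie above 0, and Ugt2b37, at 0.99, lies farthest from 0 relative to its standard error of 0.22.

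Cytosolic glutathione S-transferase genes had 13 of 16 members higher by group mean and a median log2 difference of 0.32. The median was 0.10 without the library labelled DeltaKlf6 1, 0.17 without wildtype 1, 0.52 without wildtype 2 and 0.66 without the library labelled DeltaKlf6 3. In 14 of the 16 genes the library labelled DeltaKlf6 1 lay above every wildtype array. None had an unadjusted p under 0.05, where all genes gave 3.69%.

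The mu class, enzymes that conjugate a broad range of electrophiles, had a single direction by group mean. All 7 measured genes were higher by group mean, with differences from 0.24 to 1.02 and a median of 0.64, and their groups overlapped in each case. Gstm3 was at 8.65, 9.26 and 9.61 in wildtype 1, 2 and 3 and at 10.52, 9.47 and 9.70 in the libraries labelled DeltaKlf6 1, 2 and 3 (log2 difference 0.72, SE 0.36). For Gstm3 the library labelled DeltaKlf6 2 lay between wildtype 2 and wildtype 3, and the other 2 DeltaKlf6 libraries lay above all wildtype arrays.

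Gstm1 was at 8.48, 9.81 and 9.71 in wildtype and 10.43, 10.38 and 9.10 in DeltaKlf6, in the same order of arrays (log2 difference 0.64, SE 0.47). Gstm2 was at 6.88, 8.02 and 7.76 and 8.27, 8.54 and 7.63 (log2 difference 0.59, SE 0.36), and Gstm4 at 8.39, 8.79 and 8.46 and 9.15, 8.94 and 8.66 (log2 difference 0.37, SE 0.23). In these 3 genes the first 2 DeltaKlf6 libraries were above all wildtype arrays, and the library labelled DeltaKlf6 3 lay within the wildtype range. The 4 probe sets of Gstm1 gave differences of 0.45, 0.64, -0.04 and 0.30, so 1 of them had the opposite sign.

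Gstm5 and Gstm6 had the largest differences of the class and were picked after their values were seen. Gstm5 was at 5.37, 7.31 and 6.07 in wildtype and 7.85, 7.40 and 6.17 in DeltaKlf6 (log2 difference 0.89, SE 0.57). Gstm6 was at 3.19, 5.40 and 3.77 and 6.01, 6.03 and 3.40 (log2 difference 1.02, SE 0.80). Both had wildtype 2 more than 1 above wildtype 1 on the log2 scale, and the library labelled DeltaKlf6 3 below wildtype 2 and wildtype 3 for Gstm6. Gstm7 was at 6.15, 6.95 and 6.51 and 7.36, 7.21 and 5.76 (log2 difference 0.24, SE 0.44), and without the library labelled DeltaKlf6 1 its difference was -0.05.

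In the probe sets used, the arrays kept much the same order across the 7 mu genes. Wildtype 1 was the lowest wildtype array in 7 of 7, against 37.9% of all genes, and wildtype 2 the highest in 6. Most other probe sets of these genes did not share this. Wildtype 2 was lowest in Gstm1 sets at 9.10, 8.99 and 9.49 and at 4.80, 4.78 and 5.21, and in Gstm7 (3.60, 2.80 and 3.36). Wildtype 3 was lowest in Gstm3 (3.67, 4.38 and 2.74). A further Gstm1 set had wildtype 1 lowest (7.37, 7.46 and 7.65). The library labelled DeltaKlf6 3 was the lowest DeltaKlf6 array in 6 of 7, against 38.4% of all genes, and the library labelled DeltaKlf6 1 the highest in 5. The 7 genes are neighbours on chromosome 3 in RefSeq and their transcripts are similar, and Gstm1 and Gstm3 were read from probe sets of the type shared between transcripts of several genes, so the 7 values are not independent. With all probe sets of suffix type a, s or x left out, 6 mu genes could be measured, 6 of 6 were higher and their median was 0.52. The median of the class was 0.29 without wildtype 1, 0.41 without the library labelled DeltaKlf6 1, and 0.85 without that labelled DeltaKlf6 3.

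**Figure D4:**
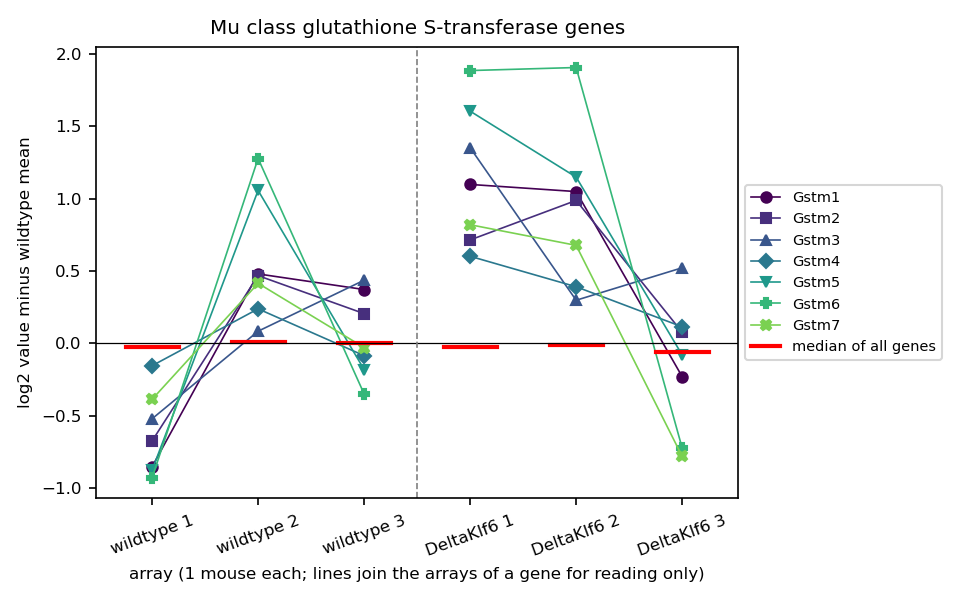
Log2 value minus the wildtype mean for the 7 mu class genes in each array (x axis, 1 mouse each), with the median of all genes in red; lines only join the points of a gene. All 7 genes are at their lowest wildtype value in wildtype 1, and in DeltaKlf6 1 all 7 lie above every wildtype array.

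Alpha class genes, whose enzymes also reduce lipid peroxides and clear lipid aldehydes, split the DeltaKlf6 libraries. Gsta2 was at 8.55, 9.19 and 8.71 in wildtype and 9.76, 7.05 and 8.88 in DeltaKlf6 (log2 difference -0.25, SE 0.61). The library labelled DeltaKlf6 1 was the highest of the 6 arrays, that labelled DeltaKlf6 2 the lowest, and that labelled DeltaKlf6 3 within the wildtype range, a DeltaKlf6 SD of 1.39 against 0.33 in wildtype. The sign of this gene turned when its 2 probe sets were averaged (0.21) and without the library labelled DeltaKlf6 2 (0.51). Gsta4, which acts on hydroxynonenal, was at 7.04, 8.03 and 6.76 and 8.74, 6.97 and 6.94 (log2 difference 0.28, SE 0.54), with the library labelled DeltaKlf6 1 above the rest. Without that library the difference was -0.32.

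Gstp1, the pi class gene that is abundant in mouse liver, differed little but evenly. It was at 12.58, 12.61 and 12.51 in wildtype and 12.76, 12.72 and 12.65 in DeltaKlf6 (log2 difference 0.14, SE 0.19). All 3 DeltaKlf6 arrays lay above all wildtype arrays, and the adjusted p (limma) was 0.992. The related Gstp3 was at 6.58, 6.87 and 7.58 and 7.07, 6.97 and 6.57 (log2 difference -0.14, SE 0.30), with overlapping groups and a sign that turned without wildtype 3 (0.14) and without the library labelled DeltaKlf6 3 (0.01).

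Among the other classes, Gstk1 had the smallest unadjusted p of the cytosolic list. It was at 8.54, 9.06 and 8.95 and 9.78, 9.68 and 8.91 (log2 difference 0.61, SE 0.29), with the library labelled DeltaKlf6 3 inside the wildtype range and the other 2 above it. The theta class genes were at 10.22, 10.74 and 10.50 and 11.01, 10.91 and 10.23 for Gstt1 (log2 difference 0.23, SE 0.28), at 8.84, 8.84 and 8.53 and 8.53, 8.64 and 8.83 for Gstt2 (log2 difference -0.07, SE 0.21), and at 5.73, 6.49 and 7.33 and 8.15, 6.67 and 6.44 for Gstt3 (log2 difference 0.57, SE 0.54). Their groups overlapped, and for Gstt1 and Gstt3 the library labelled DeltaKlf6 1 was the highest array. Gsto1, an omega class thiol transferase and dehydroascorbate reductase, was at 9.45, 9.57 and 9.57 and 10.05, 9.43 and 9.45 (log2 difference 0.11, SE 0.24), and without the library labelled DeltaKlf6 1 the difference was -0.09.

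Microsomal glutathione S-transferases showed no common direction. Mgst1, the membrane enzyme that is abundant in liver, was at 13.05, 13.17 and 13.01 and 12.97, 13.04 and 13.04 (log2 difference -0.06, SE 0.19), with overlapping groups and little spread in either. Mgst3 was at 4.30, 5.24 and 5.31 and 5.72, 6.23 and 3.68 (log2 difference 0.26, SE 0.63). There the library labelled DeltaKlf6 2 was the highest array and that labelled DeltaKlf6 3 the lowest. Its sign turned without wildtype 1 (-0.06) and without the library labelled DeltaKlf6 2 (-0.25). Mgst2, whose wildtype and DeltaKlf6 means lay under all array medians, differed by 0.01 (SE 0.20).

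UDP-glucuronosyltransferase genes had 9 of 11 members higher by group mean, with a median log2 difference of 0.12. The median was -0.05 without the library labelled DeltaKlf6 2, 0.05 without that labelled DeltaKlf6 1 and 0.35 without that labelled DeltaKlf6 3. Here 7 of 11 were above every wildtype array in the library labelled DeltaKlf6 1 and 7 in that labelled DeltaKlf6 2, while 6 were below every wildtype array in that labelled DeltaKlf6 3. For all genes these shares were 29.0%, 28.0% and 35.1%, and for genes at or above the median level 34.2%, 36.2% and 50.2%.

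Ugt2b37, a member of the steroid- and drug-conjugating 2B subfamily, was the gene with the smallest unadjusted p of all 43. It was at 3.53, 3.96 and 3.57 in wildtype and 4.64, 4.54 and 4.83 in DeltaKlf6, means of 3.68 ± 0.24 and 4.67 ± 0.15 (SD, n = 3), with a log2 difference of 0.99 (SE 0.22, unadjusted p = 0.0020, limma adjusted p = 0.992). All 3 DeltaKlf6 arrays lay above all wildtype arrays, and the 3 were close together. With each array left out in turn the difference stayed between 0.91 and 1.12. The wildtype mean lay under the array medians of 4.26 to 4.51 and the DeltaKlf6 mean just above them. Detection was not assessed, so the size of this difference rests on a signal near the lower end.

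The other 2B genes overlapped between the groups. Ugt2b34 was at 9.74, 10.24 and 9.65 and 10.32, 11.18 and 9.15 (log2 difference 0.34, SE 0.48), the widest DeltaKlf6 range of the family, with DeltaKlf6 2 as the highest array and DeltaKlf6 3 as the lowest, and without the former its difference was -0.15. Ugt2b1 was at 10.44, 10.79 and 10.29 and 11.27, 10.45 and 10.31 (log2 difference 0.17, SE 0.30), with the library labelled DeltaKlf6 1 above all others; without it the difference was -0.13. Ugt2b5 was at 10.86, 10.93 and 10.55 and 10.74, 11.29 and 10.47 (log2 difference 0.05, SE 0.27), and Ugt2b35 at 9.90, 9.94 and 9.14 and 9.70, 10.51 and 8.91 (log2 difference 0.04, SE 0.42). In both, DeltaKlf6 2 was the highest array and DeltaKlf6 3 the lowest, and without DeltaKlf6 2 the differences were -0.18 and -0.36. The 2A genes differed by 0.12 for Ugt2a3 (SE 0.22) and by -0.17 for the olfactory gene Ugt2a1, whose means lay under the array medians (SE 0.27).

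Family 1 was represented by the probe sets annotated to Ugt1a6a and Ugt1a9. Genes of this locus on chromosome 1 share their last exons, so a probe set near the 3' end can read several of them. Ugt1a6a, whose enzyme conjugates phenols, was at 11.93, 12.01 and 11.77 and 12.19, 12.14 and 11.53 (log2 difference 0.05, SE 0.25). Ugt1a9 was at 11.56, 11.50 and 11.39 and 11.55, 11.34 and 11.14 (log2 difference -0.14, SE 0.21). In both the library labelled DeltaKlf6 3 was the lowest array. The other Ugt1a6a probe set gave 0.35, and the sign of the first turned without wildtype 3 (-0.02), DeltaKlf6 1 (-0.07) and DeltaKlf6 2 (-0.05).

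Family 3 enzymes, which use sugar donors other than UDP-glucuronate, had the next smallest unadjusted p in the family after Ugt2b37. Ugt3a2 was at 8.90, 9.26 and 8.88 and 9.89, 10.25 and 8.39 (log2 difference 0.49, SE 0.46). Its first 2 DeltaKlf6 libraries lay above all wildtype arrays and the third lay below all of them, so the group mean joins opposite deviations, and without DeltaKlf6 3 the difference was 1.06. Ugt3a1 was at 8.16, 7.11 and 8.24 and 8.25, 8.35 and 7.78 (log2 difference 0.29, SE 0.34), with wildtype 2 as the lowest array, and without that array the difference was -0.08.

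Sulfotransferase genes had 10 of 13 members higher by group mean and a median log2 difference of 0.31. That median was 0.04 without the library labelled DeltaKlf6 1, 0.10 without wildtype 3, 0.12 without wildtype 1 and 0.13 without the library labelled DeltaKlf6 2. Both group means lay under the array medians for 7 of the 13 genes (Sult1c1, Sult1c2, Sult2a2, Sult2b1, Sult3a1, Sult4a1 and Sult6b1), and detection was not assessed for them.

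Sult1a1, the phenol sulfotransferase of liver, was at 10.67, 11.14 and 10.54 and 11.76, 11.32 and 10.75 (log2 difference 0.50, SE 0.31). Sult1d1, which acts on catecholamines, was at 8.17, 8.46 and 8.45 and 9.14, 8.63 and 8.45 (log2 difference 0.38, SE 0.25), and Sult1b1, which acts on thyroid hormone, at 5.01, 6.24 and 5.95 in wildtype, at 6.68 and 6.54 in the first 2 DeltaKlf6 libraries and level with wildtype 1 in the third (log2 difference 0.34, SE 0.50). In all 3 genes the library labelled DeltaKlf6 1 was the highest of the 6 arrays, and the library labelled DeltaKlf6 3 lay within the wildtype range for Sult1a1 and Sult1d1. Without the library labelled DeltaKlf6 3 the difference of Sult1a1 was 0.76 and that of Sult1b1 0.88. The Sult1b1 difference was -0.02 without wildtype 1.

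Sult1e1, the estrogen sulfotransferase, had the widest spread of the family. It was at 4.27, 4.41 and 5.76 in wildtype and 7.69, 3.75 and 5.38 in DeltaKlf6 (log2 difference 0.79, SE 0.90). The library labelled DeltaKlf6 1 was the highest array and that labelled DeltaKlf6 2 the lowest, the same order as for Gsta2. Without DeltaKlf6 1 the difference was -0.25 and without DeltaKlf6 2 it was 1.72.

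Of the SULT2 genes, which act on hydroxysteroids and bile acids, Sult2a8 was at 9.79, 10.58 and 10.14 and 10.96, 10.38 and 9.43 (log2 difference 0.09, SE 0.40), with DeltaKlf6 1 as the highest array and DeltaKlf6 3 as the lowest. Its sign turned without wildtype 1 (-0.10) and without DeltaKlf6 1 (-0.26). Sult2a2 was at 2.53, 2.69 and 2.55 and 2.38, 2.20 and 2.50 (log2 difference -0.23, SE 0.20). All 3 DeltaKlf6 values of Sult2a2 were below all wildtype values, with the library labelled DeltaKlf6 3 close to wildtype 1 and all signals under the array medians. Sult2b1, the cholesterol sulfotransferase, was at 2.81, 2.71 and 2.57 and 3.35, 2.52 and 3.14 (log2 difference 0.31, SE 0.26), also under the medians.

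The remaining sulfotransferases had overlapping groups. Sult1c1, which had the smallest unadjusted p of the family (0.130), was at 2.35, 2.47 and 2.82 and 2.88, 2.64 and 3.64 (log2 difference 0.51, SE 0.30), with DeltaKlf6 3 as the highest array. Sult5a1 was at 6.02, 7.41 and 5.89 and 6.29, 7.15 and 6.86 (log2 difference 0.32, SE 0.43), with wildtype 2 above every DeltaKlf6 array. Sult1c2, Sult3a1, Sult4a1 and Sult6b1 differed by -0.06, -0.02, 0.18 and 0.05, with standard errors of 0.28, 0.23, 0.26 and 0.20.

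**Figure D5:**
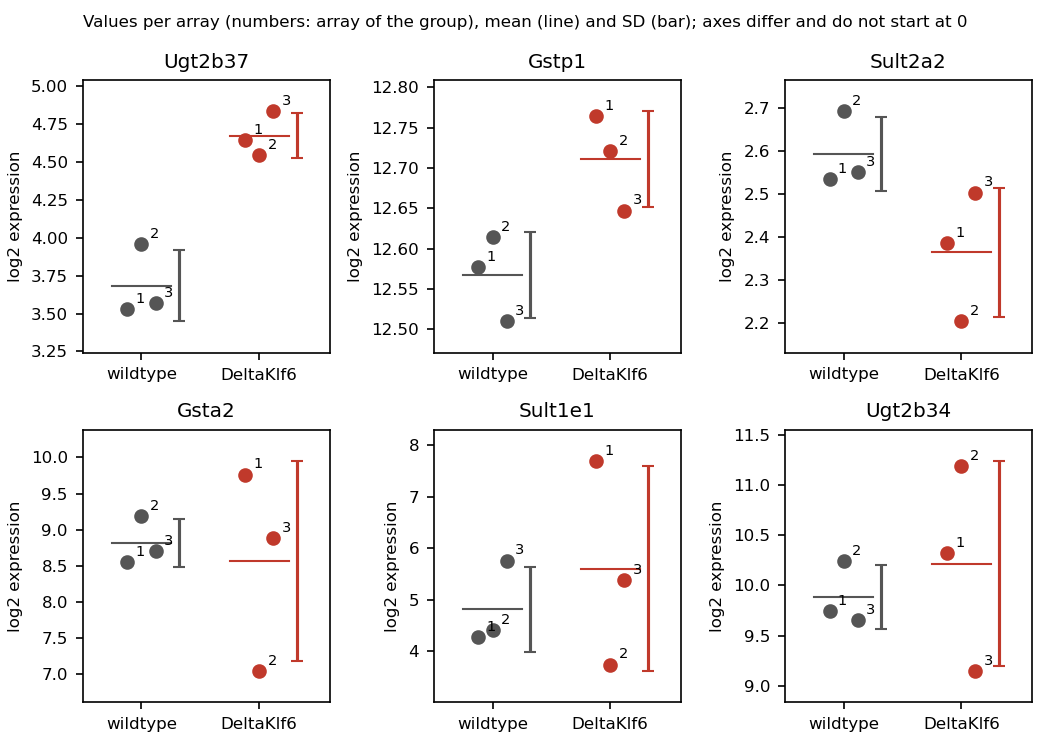
Log2 values per array of 6 conjugation genes in 3 wildtype (grey) and 3 DeltaKlf6 (red) mice, with array numbers, the group mean as a line and the SD as a bar; the axes differ and do not start at 0. The groups of Ugt2b37, Gstp1 and Sult2a2 do not overlap, and in Gsta2, Sult1e1 and Ugt2b34 the DeltaKlf6 arrays span 2.72, 3.95 and 2.03.

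Genes that supply the conjugating groups were nearly evenly divided by direction. Glutathione synthesis and recycling had 8 of 15 measured genes higher, 7 lower and a median of 0.05. Cth, which makes cysteine, was at 9.77, 9.98 and 9.43 in wildtype and 11.99, 11.55 and 9.49 in DeltaKlf6 (log2 difference 1.28, SE 0.59), high in the first 2 DeltaKlf6 libraries. Cbs, upstream of Cth, differed by 0.53 (SE 0.36), and Oplah, which returns oxoproline to glutamate, by -0.41 (SE 0.23). For UDP-glucuronate supply and removal 5 of 9 genes were higher and 4 lower, with a median of 0.09. The hexokinase Hk2 differed by -0.58 (SE 0.34), the endoplasmic reticulum nucleotide carrier Slc35b1 by 0.21 (SE 0.25) and the glucuronidase Gusb by 0.16 (SE 0.24).

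For sulfate donor supply and removal 6 of 11 genes were higher and 5 lower, with a median of 0.03. The lysosomal sulfatase gene Arsa was at 8.25, 7.52 and 7.83 and 7.32, 7.26 and 7.51 (log2 difference -0.51, SE 0.25) without overlap, while Slc26a1, a sulfate transporter, was at 7.56, 7.71 and 7.87 and 5.54, 8.43 and 5.02 (log2 difference -1.38, SE 0.78), with DeltaKlf6 2 above and the other 2 libraries below all wildtype arrays. Arsa was the 1 gene of the 11 without overlap, where 5.91% of all genes were lower without overlap. Bpnt2 differed by -0.58 (SE 0.41). Conjugate export pumps had 7 of 9 higher (median 0.08), against 48.4% of all genes. Abcb1a differed by 0.79 (SE 0.36), Abcc1 by 0.52 (SE 0.27) and Abcc5 by 0.15 (SE 0.28). With averaged probe sets these differences were 0.45, 0.34 and 0.04. The other pumps lay between -0.15 (Abcc2) and 0.21 (Abcg2). Other conjugation enzymes had 6 of 12 higher (median 0.01), with the arsenic methyltransferase As3mt at -0.67 (SE 0.30), the histamine methyltransferase Hnmt at 0.78 (SE 0.50) and the acetyltransferase Nat2 at 0.38 (SE 0.27).

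Known regulators and their other targets gave the following values. Of 10 measured genes on a list of xenobiotic sensors and hepatocyte factors 8 were lower by group mean (median -0.33), against 51.6% of all genes. In 3 of the 10 the groups did not overlap, all lower, against 5.91% of all genes. None of the 10 lay under the array medians. Of the 8549 genes at or above the median level 4945 were lower, and 629 were lower without overlap. Ppara, the fatty acid receptor, was at 9.27, 8.98 and 8.90 in wildtype and 6.79, 7.59 and 7.93 in DeltaKlf6 (log2 difference -1.61, SE 0.31). Arnt, the partner of AHR, was at 7.32, 6.86 and 6.87 and 6.65, 6.64 and 6.41 (log2 difference -0.45, SE 0.22). The third was Hnf4a, a hepatocyte factor rather than a xenobiotic sensor, chosen after its values were seen, with a difference of -0.13. The bile acid receptor gene Nr1h4 overlapped and differed by -0.59 (SE 0.43). NRF2 targets outside conjugation had 11 of 12 genes higher (median 0.42), against 48.4% of all genes. Gclc, Gclm and Slc7a11 of this list were also counted under glutathione synthesis and recycling. The groups did not overlap for 1 of the 12, Akr1b8, against 3.41% of all genes on the higher side. Akr1b8 was at 5.04, 5.20 and 4.70 and 6.13, 5.45 and 5.55 (log2 difference 0.73, SE 0.26) without overlap, Cbr3 differed by 0.81 (SE 0.37) and Ephx1 by 0.59 (SE 0.33). The median deviation of the NRF2 target list from wildtype was 1.15 in DeltaKlf6 1, 0.38 in DeltaKlf6 2 and -0.17 in DeltaKlf6 3. The cytosolic glutathione S-transferase list had the same order (0.87, 0.34 and -0.08). So did other lists, among them glutathione synthesis and recycling (0.14, 0.11 and -0.25) and the hepatocyte markers (0.18, 0.13 and 0.01). Others did not, such as UDP-glucuronate supply and removal (0.26, 0.32 and -0.32). No link between the lists was tested. CAR, PXR and AHR targets had 8 of 12 higher (median 0.10), with Cyp2b10 at 0.82 (SE 0.59), Cyp1a2 at 0.29 (SE 0.27) and Tiparp at 0.75 (SE 0.81), the last high in the library labelled DeltaKlf6 1 alone (9.62, 6.14 and 6.52 in DeltaKlf6). None of the genes in these lists passed the test (smallest adjusted p 0.992), and 2 of the 87 different genes measured in them (2.30%), Ppara and Akr1b8, had an unadjusted p under 0.05, against 3.69% of all genes.

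Markers of other liver cells varied beside these results, and their part in them was not tested. Of the Kupffer cell and macrophage genes 6 of 8 were higher, with a mean level of 6.62 to 7.10 in wildtype and 6.83 to 7.70 in DeltaKlf6. Sinusoidal endothelial markers had 4 of 6 lower, at 6.54 to 6.84 and 6.34 to 6.71. Stellate cell and fibroblast markers had 4 of 6 lower, at 6.16 to 6.58 and 5.66 to 6.93. For cholangiocytes 4 of 4 markers lay under the array medians, with mean levels of 2.91 to 3.66 and 3.20 to 3.61. Lymphocyte markers had 4 of 5 under the medians, at 3.37 to 3.69 and 3.34 to 3.38, and pancreatic acinar markers 3 of 4, at 3.89 to 4.23 and 4.08 to 4.51. Neutrophil markers (3 measured) were at 5.44 to 6.29 and 5.32 to 6.12, and erythroid markers (2 measured) at 9.55 to 9.68 and 9.74 to 10.01.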

How the data were processed

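The submitters' processing notes name RMA and Affymetrix Expression Console 1.2.1, and the values the authors deposited are on a log2 scale. RMA quantile-normalizes the arrays, so a change in the total amount of RNA cannot be seen. Array differences remained over the genes used here, such as the upper quartile of 6.47 in the library labelled DeltaKlf6 3. With these values quantile-normalized again, 32 of 43 members were higher and their median was 0.19. The log base was inferred from the highest value, 13.9, which is under the scanner limit of 16. The genome build of the probe design is not given in the sources used here; coordinates above are those of RefSeq promoters. The deposited table held 45141 probe sets; 28898 had 1 gene symbol in the platform annotation, 551 several, and the rest were unnamed here. All 43 member symbols matched RefSeq. Of the members 12 were read from probe sets of suffix type a, s or x, 5 of them (Gstm1, Gstm3, Gsto1, Ugt2b34 and Sult6b1) of the types that can read several genes. Several probe sets existed for 11 members, and they disagreed in sign for 2, Gsta2 and Gstm1.

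DeltaKlf6 was compared with wildtype by a linear model without covariates (lmFit, then eBayes; limma 3.58.1, R 4.3.3; two-sided) with Benjamini-Hochberg adjustment over all 17097 genes and a threshold of 0.05. Array medians are over these genes. The calculation was tested on simulated data with the wildtype spread in both groups, so the wider DeltaKlf6 spread was not represented. Each array is 1 animal, and 3 per group limit the precision. Alternatives were a gene's mean over probe sets, other filters, a renewed normalization, other variance models, the replicate block and each array left out. Members, lists, alternatives and naming rule were chosen with earlier results of these data known. The rule names members with non-overlapping groups, the smallest unadjusted p per family, well-known liver members, the widest DeltaKlf6 range per family, and 3 genes of smallest p per pathway list; every other member is given with its value. Figures were drawn with matplotlib 3.10.9.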

Additional observations from a re-analysis of the deposited data

Results flagged for a closer look

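Probe sets of members that were not used for the gene values were looked at for signals above the wildtype arrays, with a margin of 1 on the log2 scale chosen after the values were seen. The other probe set of Gsta2 was at 7.59 in the library labelled DeltaKlf6 1, 2.73 above the highest wildtype array (wildtype 4.40 to 4.86). The other Gstm3 probe set was at 5.97 in the same library, 1.59 above the highest wildtype array (2.74 to 4.38). The other Sult1d1 probe set was at 8.35 there, 1.07 above (6.95 to 7.28). The other Ugt2b34 probe set was at 10.10 in the library labelled DeltaKlf6 2, 1.51 above (7.28 to 8.59). No explanation of these signals was tested.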

How the results depend on the processing

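With 3 arrays per group, 1 array can turn the sign of a small difference. Under 7 other settings and with each of 6 arrays left out, 0 genes and 0 conjugation genes passed the adjusted threshold; the settings were averaged probe sets, no shared probe sets, no dim genes, quantile normalization again, array weights, a variance trend and the replicate number as a block. With the replicate block 703 genes had an unadjusted p under 0.05, against 631 without it, with 1 member in each case. The block changed no call; deviations of same-numbered arrays correlated at -0.01, 0.26 and 0.08, wildtype 1 correlated best with DeltaKlf6 3, and the labels do not say that the numbers pair animals. Of 542 values of members under these settings 507 kept their direction, and 23 members kept it in all of them, among them 6 of the 7 mu genes. The variance trend, the replicate block and leaving out dim genes change no difference, so their values could not turn. The probe set settings also repeat the main value wherever a gene keeps the same single probe set. The 507 therefore include values whose direction was fixed in advance. The microsomal median was 0.10 with dim genes left out, and it ran from -0.074 to 0.060 with an array left out. The sulfotransferase median ran from 0.042 to 0.38. Directions turned for Gsta2 with averaged probe sets (0.21), for Mgst2 (-0.0061) and Ugt2b5 (-0.014) with quantile normalization and for Sult1c2 with array weights (0.063). With arrays left out, they turned, over the ranges given, for Abcc5 (-0.11 to 0.32), Gsta2 (-0.85 to 0.51), Gsta4 (-0.32 to 0.65), Gstm7 (-0.051 to 0.75), Gsto1 (-0.093 to 0.22), Gstp3 (-0.35 to 0.14), Mgst2 (-0.065 to 0.060), Mgst3 (-0.25 to 1.03), Sult1b1 (-0.020 to 0.88), Sult1c2 (-0.25 to 0.15), Sult1e1 (-0.25 to 1.72), and likewise for Sult2a8 (-0.26 to 0.50), Sult3a1 (-0.17 to 0.10), Sult6b1 (-0.017 to 0.14), Tiparp (-0.34 to 1.40), Ugt1a6a (-0.066 to 0.26), Ugt2a1 (-0.41 to 0.011), Ugt2b1 (-0.13 to 0.35), Ugt2b34 (-0.15 to 0.87), Ugt2b35 (-0.36 to 0.44), Ugt2b5 (-0.18 to 0.23) and Ugt3a1 (-0.075 to 0.49). The cause was not tested.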
